A study of Arabidopsis thaliana with 9 samples.

Results

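The plastid genome of Arabidopsis thaliana was followed through every locus whose identifier begins with ATCG, 133 of the 33557 loci listed in both deposited tables. The loci comprised 37 tRNA and 8 rRNA genes and 88 protein-coding genes. Of the protein-coding genes, 26 encode ribosomal proteins, 15 belong to photosystem II, 12 to the NDH complex, 7 to photosystem I (with the assembly factors ycf3 and ycf4), 6 to the ATP synthase, 6 to the cytochrome b6f complex, 4 to the plastid RNA polymerase and 12 to none of these. Seedlings of the Col-0 ecotype, aged 14 days on solid half-strength MS medium, were compared in 3 groups of 3 biological replicates, each kept for 12 h in the light under added liquid medium. The DOX group was wild type given 25 µg/ml doxycycline. The mrpl1-1 group carried the mrpl1-1 mutation of MRPL1, a gene for a mitochondrial ribosomal protein, and received no drug. The WT group was wild type without drug, and the same 3 WT libraries served both comparisons. By its title the series concerns impaired mitochondrial translation.

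Plastids keep a small genome of bacterial descent. A bacterial-type RNA polymerase, whose core subunits are the plastid genes rpoA, rpoB, rpoC1 and rpoC2, transcribes mainly photosynthesis genes, while a nuclear-encoded phage-type polymerase transcribes among others rpoB and accD. Plastid ribosomes are also of the bacterial type, the class of ribosome that tetracyclines such as doxycycline bind. Plastid messengers carry no stable poly(A) tail, and short tails mark them for decay, so the polyA-selected libraries sampled plastid RNA as far as it passed that selection.

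Plastid reads made up a small share of each library. Reads recovered from the steps between FPKM values (fragments per transcript length and mapped total) came to 28961, 28900 and 23056 on the 133 loci in the DOX libraries. The mrpl1-1 libraries held 20857, 52697 and 40947 and the WT libraries 40645, 31725 and 27041. As a share of the reads estimated for all genes this was between 0.383% and 0.404% with DOX, between 0.506% and 0.860% in mrpl1-1 and between 0.459% and 0.791% in WT. mrpl1-1 replicate 2, at 0.860%, and WT replicate 3, at 0.791%, lay above the other libraries of their groups. Among the 58 loci with at least 10 reads per library on average, 23 were more than 1 log2 unit higher in mrpl1-1 replicate 2 than in the mean of mrpl1-1 replicates 1 and 3, and 10 were that much higher in WT replicate 3 than in the mean of the other 2 WT libraries. Green-tissue markers (RBCS1A, LHCB1.1, LHCA1 and GAPA) were detected in every library, as were the 5 root markers. MRPL1 itself was listed at 19.6, 12.0 and 18.6 FPKM in mrpl1-1 and at 19.4, 18.0 and 25.1 FPKM in WT, so the groups overlapped and its RNA level did not check the genotype.

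The per-length levels covered a wide range and reached 0. In WT, rbcL (ATCG00490), the large subunit of Rubisco, averaged 1406 ± 618 FPKM, and psbA (ATCG00020), the D1 reaction-centre protein of photosystem II, 1313 ± 387 FPKM (SD, n = 3 each). Next among genes of more than 300 nt came atpE (ATCG00470), the epsilon subunit of ATP synthase, at 1151 ± 63.5 FPKM, rpl16 (ATCG00790), a ribosomal protein, at 1011 ± 685 FPKM, and atpB (ATCG00480), the beta subunit of ATP synthase, at 672 ± 118 FPKM. rbcL, psbA, atpE and rpl16 did not differ beyond their spread. The 4 loci with most reads, psbA, atpB, rbcL and atpE, took between 63.3% and 66.5% of plastid reads with DOX, between 66.0% and 71.8% in mrpl1-1 and between 72.4% and 73.2% in WT. At the other end 24 loci, mostly tRNA genes, were listed at 0 in all 9 libraries. Most of them have an identical copy elsewhere in the plastid genome, so which copy a read came from cannot be told. Their 0 is therefore no measure of absent RNA.

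Short loci need care, because FPKM gives them large values from few reads. A single read on a 74-nt tRNA was worth between 106 and 282 FPKM, against between 0.130 and 0.345 FPKM on a transcript of 1000 nt. All 37 tRNA genes together held 58, 50 and 33 reads in the DOX libraries, 30, 45 and 61 in mrpl1-1 and 69, 56 and 28 in WT. trnS (ATCG00090), a serine tRNA gene, had more of these than any other tRNA gene in each library, and the highest FPKM of any plastid locus in WT, from 22, 25 and 13 reads with DOX, 16, 21 and 34 in mrpl1-1 and 46, 26 and 10 in WT.

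A pair of tRNA genes were the plastid loci that passed the test across all genes, 1 in each comparison, and both rested on single reads. They are printed 5′ to 3′ because their length sets what a read is worth, with the anticodon in capitals, as RefSeq gives them in TAIR10.1 on the plastid genome, here chrC. trnD (ATCG00230) is the aspartate tRNA gene at chrC:29801-29874 on the minus strand, 74 nt long, and trnF (ATCG00410) the phenylalanine tRNA gene at chrC:48175-48247 on the plus strand, 73 nt long.
trnD: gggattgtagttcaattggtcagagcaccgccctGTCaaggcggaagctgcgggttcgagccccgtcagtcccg
trnF: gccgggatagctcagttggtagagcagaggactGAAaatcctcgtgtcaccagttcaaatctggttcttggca

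trnD had 124, 257 and 161 FPKM with DOX, which were 1, 2 and 1 reads, and was listed at 0 in all 3 WT libraries. limma gave it an adjusted p of 0.000127. The limit that a count of 0 allows, 3 reads in a library, is 319, 456 and 845 FPKM in those WT libraries, above each of the DOX values, so no fold is given. In mrpl1-1 trnD was listed at 0 in every library. trnF was listed at 0 in all 3 mrpl1-1 libraries, where 3 reads would be 817, 557 and 334 FPKM, and at 210, 300 and 278 FPKM in WT, from 2, 2 and 1 reads (adjusted p = 5.53e-07, limma). With DOX it had 2 reads in replicate 1 and 0 in replicates 2 and 3. Neither gene was tested once loci under 10 reads on average, or transcripts under 300 nt, were left out, and then no plastid locus was called in either comparison.

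The first comparison asked how plastid transcripts stood after 12 h of doxycycline. psaA, psaB, psbA, psbB and rbcL were lower in every DOX library than in every WT library, and ndhH, ndhA, rpoB and accD were higher, but apart from trnD no plastid locus passed the adjusted threshold. Of the 133 loci 97 had a mean of at least 1 FPKM and were tested, and 1 of them was called, or 1.03%, beside 0.184% of all 19073 genes tested. The replicates did not overlap for 9 loci that were higher with DOX, or 9.28%, beside 8.51% of all genes, and for 11 that were lower, or 11.3%, beside 7.48%. At an unadjusted p under 0.05, 8 loci were higher (8.25%, beside 3.84% of all genes) and 15 lower (15.5%, beside 4.65%). The median log2 fold change of the 97 loci was -0.05 and that of all genes 0.00, and the FPKM summed over all plastid loci was 0.788 times that of WT. These sums overlapped, at 14672, 12898 and 12064 FPKM with DOX and 13608, 16614 and 20105 FPKM in WT. Between 4326 and 5908 FPKM of each sum lay on the tRNA genes, which held few reads.

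In photosystem I only the genes of its paired reaction-centre proteins differed without overlap. psaA (ATCG00350) had 22.2, 30.7 and 26.9 FPKM with DOX and 40.0, 46.3 and 57.4 FPKM in WT, every DOX library below every WT library. The mean with DOX was 0.555 times that in WT, a log2 fold change of -0.82 ± 0.17 (SE, adjusted p = 0.205). psaB (ATCG00340), its partner, had 26.2, 33.3 and 31.0 FPKM with DOX and 41.9, 57.1 and 84.7 FPKM in WT, 0.492 times the WT mean and also without overlap (adjusted p = 0.348). In bulk seedlings fewer cells of a type and less RNA per cell cannot be told apart. psaJ (ATCG00630), a small subunit and the most abundant of the group per length, overlapped between the groups, with 200, 240 and 100 FPKM with DOX and 106, 359 and 281 FPKM in WT. So did psaC and ycf4, with log2 fold changes of -0.05 and 0.07.

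In photosystem II all 8 transcripts with at least 10 reads on average had a log2 fold change below 0, between -0.76 and -0.35, with a median of -0.50. Of the 15 loci, 7 had an unadjusted p under 0.05, each lower with DOX (46.7%, beside 4.65% of all genes), and none was called. psbA had 685, 830 and 802 FPKM with DOX and 1001, 1193 and 1747 FPKM in WT, which did not overlap, with a log2 fold change of -0.73 ± 0.21 (adjusted p = 0.445). psbB (ATCG00680), the CP47 core antenna protein, had 34.4, 42.8 and 46.8 FPKM with DOX and 54.4, 62.8 and 64.4 FPKM in WT (adjusted p = 0.348). psbF (ATCG00570), a small subunit of cytochrome b559, had 23.1, 72.0 and 30.2 FPKM with DOX and 139, 142 and 158 FPKM in WT, but from 1, 3 and 1 reads and 7, 5 and 3 reads. Its adjusted p was 0.153, and 0.0126 without DOX replicate 2.

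Bacterial-type promoters carry a pair of short boxes, with the consensus letters TTGACA and TATAAT. The 300 nt before each of 127 plastid genes were searched on both strands for TTGACA, 15 to 19 letters and then TATAAT or TATACT. The search matched 2 windows, those of psbA and of trnK, a lysine tRNA gene. TATACT is not the consensus, and it is the box of psbA itself, so the psbA match was set by allowing it. Of the 2 matches only that of trnK holds TATAAT. The matches are printed with the boxes in capitals; they lie at chrC:1530-1559 and chrC:4458-4486, both on the minus strand, in TAIR10.1.
psbA: TTGACAtggctatataagtcatgtTATACT
trnK: TTGACAacagtgtatggaccaaaTATAAT

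These letters are a description and not a tested site. trnK itself had 1 read in all 9 libraries, in DOX replicate 1, and psbA has the values given above.

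Rubisco's rbcL had 658, 666 and 750 FPKM with DOX and 970, 1135 and 2114 FPKM in WT. The groups did not overlap and the DOX mean was 0.492 times the WT mean, with a log2 fold change of -0.94 ± 0.28 (adjusted p = 0.446). Without WT replicate 3, its highest library, the log2 fold change was -0.60. atpB had 478, 497 and 465 FPKM with DOX and 620, 590 and 807 FPKM in WT, lower in every library (adjusted p = 0.459), and atpE was lower in every library too, at 969, 993 and 998 FPKM with DOX and 1147, 1090 and 1217 FPKM in WT. The remaining ATP synthase genes overlapped. All 6 cytochrome b6f transcripts had log2 fold changes below 0, but petN, petL and petG had at most 2 reads in any DOX or WT library. The 3 with at least 10 reads on average lay between -0.51 and -0.25, and their groups overlapped. The smallest p was that of petD (ATCG00730), subunit IV, with 35.6, 45.9 and 31.4 FPKM with DOX and 52.1, 44.8 and 37.2 FPKM in WT. For petB (ATCG00720), the cytochrome b6 gene, the groups overlapped at 84.2, 108 and 108 FPKM with DOX and 87.6, 109 and 297 FPKM in WT, and without WT replicate 3 its log2 fold change was 0.02.

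**Figure D1:**
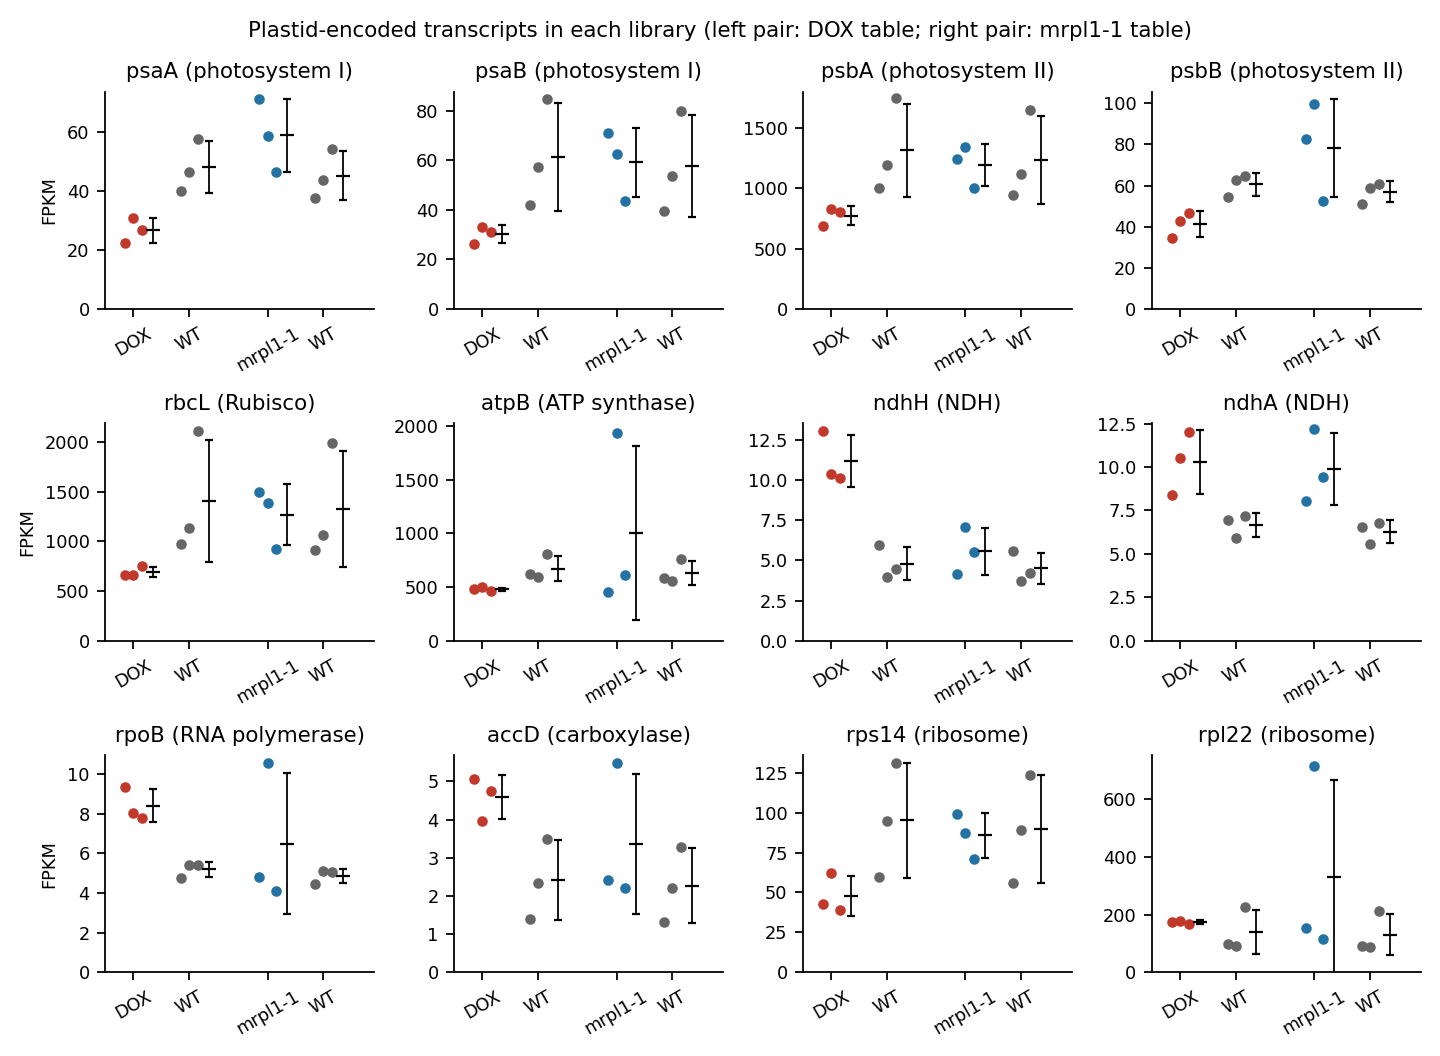
FPKM of 12 plastid transcripts in each library (points, replicates 1 to 3 side by side) with the mean and SD of 3 replicates beside them (bars cut at 0); DOX and WT come from one table and mrpl1-1 and the same WT libraries from the other. psaA, psaB, psbA, psbB, rbcL and atpB lay lower in all 3 DOX libraries than in all 3 WT libraries, ndhH, ndhA, rpoB and accD lay higher, and for atpB and rpl22 mrpl1-1 replicate 2 stood far above the other 2 mrpl1-1 libraries.

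The NDH complex, which passes electrons around photosystem I, had log2 fold changes above 0 for most of its genes. Of 10 tested transcripts 7 had a log2 fold change above 0, beside 50.4% of all genes. Of the 7, 4 were higher in every DOX library than in every WT library: ndhA, ndhD, ndhF and ndhH. They were 40% of the 10 tested, beside 8.51% of all genes. ndhH (ATCG01110) had 13.1, 10.4 and 10.1 FPKM with DOX and 5.94, 3.94 and 4.5 FPKM in WT, from 106, 81 and 63 reads and from 56, 26 and 16 reads. Its log2 fold change was 1.08 ± 0.18 with an adjusted p of 0.0944, the lowest of the protein-coding plastid genes. ndhA (ATCG01100) had 8.36, 10.5 and 12.0 FPKM with DOX and 6.96, 5.90 and 7.19 FPKM in WT (adjusted p = 0.446). The adjacent ndhC, ndhK and ndhJ had values nearer 0. ndhK (ATCG00430), the most abundant NDH transcript, overlapped at 99.9, 117 and 116 FPKM with DOX and 127, 119 and 114 FPKM in WT, and ndhJ was lower with DOX in every library, by a log2 fold change of -0.21.

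All 4 RNA polymerase genes had a log2 fold change between 0.31 and 0.60. rpoB (ATCG00190), the beta subunit, had 9.33, 8.02 and 7.79 FPKM with DOX and 4.76, 5.41 and 5.39 FPKM in WT, without overlap, and a log2 fold change of 0.60 ± 0.13 (adjusted p = 0.247). rpoA (ATCG00740), the alpha subunit and the most abundant, had 30.2, 28 and 31.8 FPKM with DOX and 20.4, 21.7 and 29.7 FPKM in WT, which overlapped. accD (ATCG00500), a subunit of acetyl-CoA carboxylase in fatty acid synthesis, had 5.06, 3.97 and 4.74 FPKM with DOX and 1.40, 2.35 and 3.48 FPKM in WT, 1.90 times the WT mean (adjusted p = 0.490).

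Ribosomal protein transcripts split. Among the 12 with at least 10 reads on average 8 had log2 fold changes above 0 and 4 below, with a median of 0.10. rps14 (ATCG00330), of the small subunit, had the smallest p, with 42.6, 62.1 and 39.1 FPKM with DOX and 59.4, 94.7 and 131 FPKM in WT, which overlapped (adjusted p = 0.485). rpl16, the most abundant, overlapped at 916, 709 and 759 FPKM with DOX and 632, 599 and 1802 FPKM in WT, the last from WT replicate 3. rpl22 (ATCG00810), chosen after its values were seen, had 175, 180 and 169 FPKM with DOX and 98.6, 92.8 and 226 FPKM in WT, and without WT replicate 3 its adjusted p was 0.0110, with a log2 fold change of 0.86. rpl2, of the large ribosomal subunit, has an identical pair of copies in the inverted repeat. The copy ATCG00830 was higher in each DOX library, at 1.74, 1.01 and 2.03 FPKM, than in WT, at 0.334, 0.715 and 0.442 FPKM, from 9, 5 and 8 reads and from 2, 3 and 1 reads (adjusted p = 0.507). The copy ATCG01310 overlapped, with 4, 9 and 5 reads with DOX and 5, 5 and 4 in WT. Summed over both copies the level was 2.52, 2.82 and 3.29 FPKM with DOX and 1.17, 1.91 and 2.21 FPKM in WT, which did not overlap.

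The rRNA genes, which lie in the inverted repeat as identical copies, overlapped between the groups. rrn16 (ATCG00920) had 29.5, 25.1 and 32.1 FPKM with DOX and 18.1, 23.7 and 50.6 FPKM in WT. Which copy a read came from cannot be told for the 30 loci with an identical copy. rrn4.5 (ATCG01170) had 1 read in all, in WT replicate 3.

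**Figure D2:**
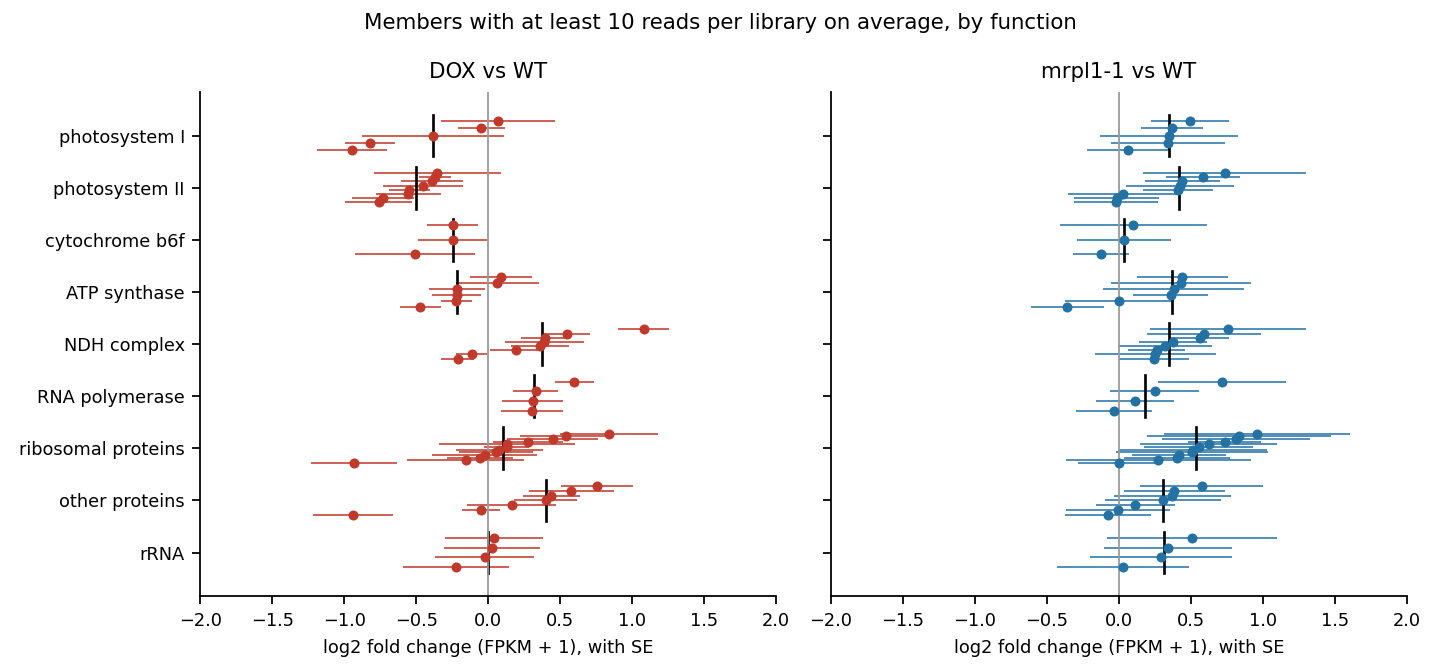
Log2 fold change of log2(FPKM + 1) values, with its SE, for the plastid loci with at least 10 reads per library on average, grouped by function (the 1 tRNA is not shown); black lines are group medians. With DOX the photosystem II median was -0.50 and the NDH median 0.37; in mrpl1-1 the group medians lay between 0.04 and 0.53.

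Ratios within a library do not depend on how libraries are scaled, and they separated the DOX libraries from the rest. These ratios were chosen after the values were seen, so no test is given. For each read on the 4 polymerase genes there were 11.6, 15.1 and 14.6 photosystem reads with DOX, 32.9, 16.2 and 29.0 in mrpl1-1 and 30.01, 28.9 and 34.7 in WT. Every DOX library lay below every WT library, while mrpl1-1 replicate 2 lay near the DOX libraries. Pairs of transcripts of about the same length were also lower in every DOX library than in every other library. psaA (2253 nt) had 7.54, 11.4 and 14.5 reads per read of ndhF (2241 nt) with DOX, 30.2, 21.1 and 22.95 in mrpl1-1 and 24.6, 26.7 and 32.8 in WT. For psaB (2205 nt) against rpoC1 (2043 nt) the values were 4.38, 6.03 and 5.70 with DOX, 16.0, 13.4 and 14.3 in mrpl1-1 and 13.7, 12.6 and 14.3 in WT.

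**Figure D3:**
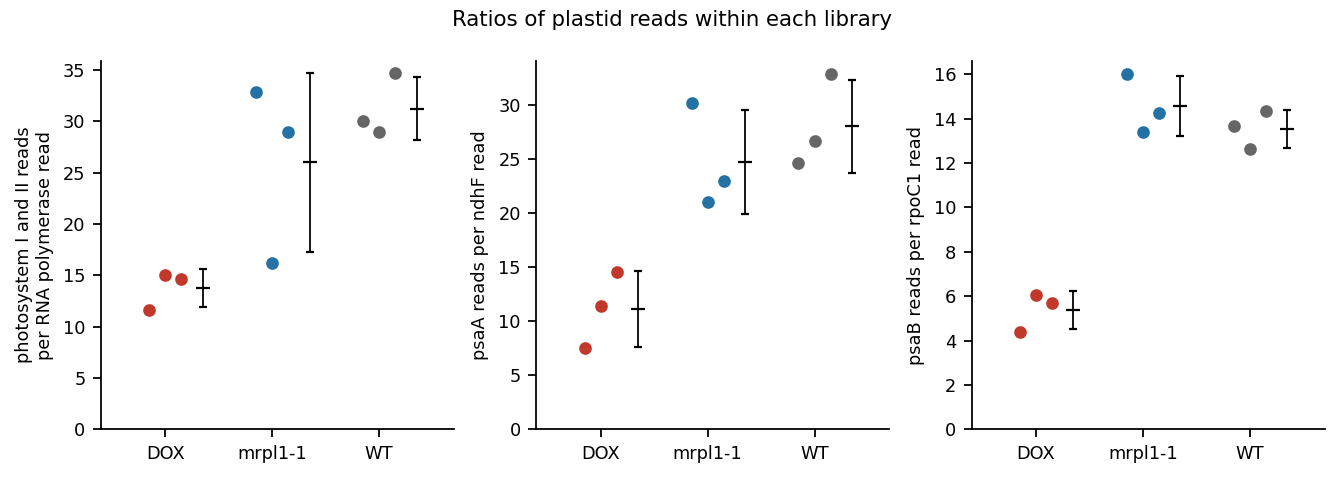
Ratios of recovered reads within each library (points, replicates 1 to 3) with the mean and SD of 3 replicates. The DOX libraries lay between 11.6 and 15.1 photosystem reads per polymerase read and the WT libraries between 28.9 and 34.7; mrpl1-1 replicate 2, at 16.2, stood apart from the other 2 mrpl1-1 libraries.

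Length moved with the DOX contrast in nuclear genes, though not in one direction. The median log2 fold change of nuclear genes was 0.16 for the 152 transcripts under 300 nt, -0.15 for those of 300 to 600 nt and 0.06 above 2500 nt. Of the 97 plastid loci tested, 43 were under 300 nt. Between 2000 and 2500 nt, where the nuclear median was 0.04, the 4 plastid genes psaA, psaB, ndhF and rpoC1 ran between -0.95 and 0.36. The part of length in the plastid values was otherwise not tested.

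**Figure D4:**
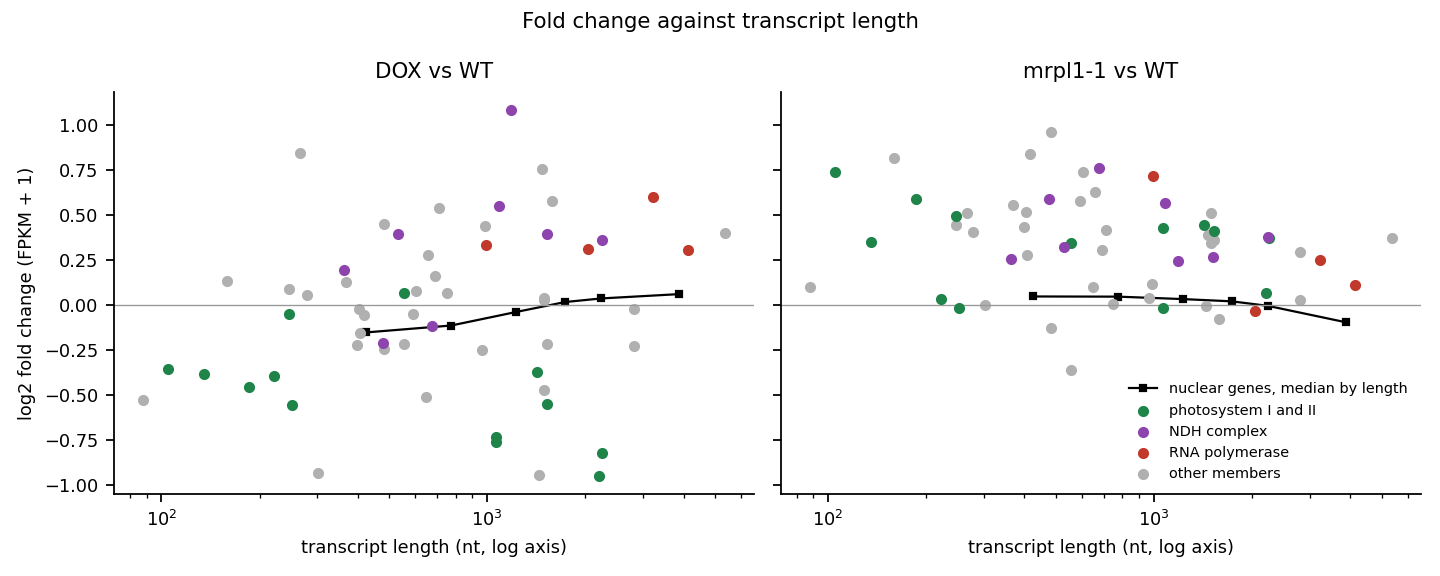
Log2 fold change against transcript length (log axis) for plastid loci with at least 10 reads per library on average (coloured by function) and the median of nuclear genes of at least 300 nt by length (black). With DOX psaA (2253 nt) lay at -0.82 and psaB (2205 nt) at -0.95, while the nuclear median between 2000 and 2500 nt was 0.04.

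Values can also be read along the plastid genome. psaA, psaB and rps14, which follow each other on the minus strand between chrC:36938 and chrC:41857, had log2 fold changes of -0.82, -0.95 and -0.93 with DOX. Another run on the same strand, rps15, ndhH and ndhA, between chrC:119847 and chrC:123562, had 0.84, 1.08 and 0.55. Beyond ndhA on that strand, ndhI had -0.18, ndhG 0.39, ndhE 0.42, psaC -0.05 and ndhD 0.39. The runs were chosen after their values were seen. The adjacent genes rbcL and accD, both on the plus strand, had -0.94 and 0.75. Adjacent genes can share a transcript, and no source used here says whether the authors' quantification used strand, so reads between neighbours may not be independent.

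The second comparison asked how the mrpl1-1 mutant stood against WT, and apart from trnF no plastid transcript passed the adjusted threshold. Of the 133 loci 94 were tested and 1 was called, or 1.06%, beside 0.0369% of all 18994 genes tested. The replicates did not overlap for 5 loci that were higher in mrpl1-1, or 5.32%, beside 5.09% of all genes, and for 1 that was lower, or 1.06%, beside 5.04%. At an unadjusted p under 0.05, 6 loci were higher (6.38%, beside 2.83%) and 2 lower (2.13%, beside 1.63%). The median log2 fold change of the plastid loci was 0.31 and that of all genes -0.00, and without mrpl1-1 replicate 2 it was 0.05. Rescaling to nuclear-encoded genes moved the median of all genes to -0.11; relative to that the plastid median was again 0.31. The FPKM summed over all plastid loci was 1.27 times that of WT, and 0.960 times without mrpl1-1 replicate 2.

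The genes named by the same rule showed how far replicate 2 set these values. ndhK had 97.0, 539 and 135 FPKM in mrpl1-1 and 120, 112 and 107 FPKM in WT, and atpE had 740, 3260 and 1285 FPKM in mrpl1-1 and 1078, 1026 and 1146 FPKM in WT. rpoA had 23.8, 85.2 and 24.9 FPKM in mrpl1-1 and 19.2, 20.4 and 28 FPKM in WT, with a log2 fold change of 0.71 ± 0.44 (adjusted p = 0.931). clpP (ATCG00670), a protease subunit, had 20.2, 70.7 and 21.0 FPKM in mrpl1-1 and 17.8, 21.2 and 23.3 FPKM in WT. In each case replicate 2 was the highest of the 6 libraries. The other mrpl1-1 libraries lay within the WT range for rpoA and clpP. For ndhK and atpE replicate 1 lay below every WT library and replicate 3 above every WT library. rpl16, at 549, 2678 and 684 FPKM in mrpl1-1 and 595, 563 and 1696 FPKM in WT, was high in both libraries that stood apart.

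Another set of transcripts was less set apart in replicate 2. psbA had 1241, 1341 and 1002 FPKM in mrpl1-1 and 941, 1122 and 1644 FPKM in WT, and rbcL 1498, 1386 and 920 FPKM in mrpl1-1 and 912, 1068 and 1990 FPKM in WT. Their log2 fold changes were -0.02 ± 0.29 and -0.01 ± 0.36. psaC (ATCG01060), the iron-sulphur subunit of photosystem I, had 69.7, 38.6 and 71.2 FPKM in mrpl1-1 and 31.9, 43.2 and 49.0 FPKM in WT. psbK (ATCG00070), a small photosystem II subunit, had 140, 154 and 119 FPKM in mrpl1-1 and 86.9, 130 and 65.9 FPKM in WT, and atpF (ATCG00130), an ATP synthase subunit, had 29.5, 30.4 and 50.2 FPKM in mrpl1-1 and 37.9, 43.9 and 58.0 FPKM in WT. The groups overlapped for all of these. They also overlapped for psaJ, at 226, 441 and 185 FPKM in mrpl1-1 and 99.6, 338 and 264 FPKM in WT, and for petB, at 181, 213 and 75.5 FPKM in mrpl1-1 and 82.4, 103 and 279 FPKM in WT. The rRNA gene rrn16 (ATCG00920) spread widely within mrpl1-1, at 77.4, 48.9 and 14.0 FPKM against 17.0, 22.3 and 47.7 FPKM in WT.

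The named genes ndhA, rps4 and rpl2 lay above WT in every mrpl1-1 library, none of them past the adjusted threshold. ndhA had 8.07, 12.2 and 9.42 FPKM in mrpl1-1 and 6.55, 5.55 and 6.77 FPKM in WT, a log2 fold change of 0.57 ± 0.20. rps4 (ATCG00380), of the small ribosomal subunit, had 7.53, 11.6 and 5.90 FPKM in mrpl1-1 and 5.08, 3.80 and 4.49 FPKM in WT, a log2 fold change of 0.74 ± 0.25. rpl2 had 1.22, 6.11 and 1.33 FPKM in mrpl1-1 and 0.314, 0.672 and 0.416 FPKM in WT, from 3, 22 and 8 reads and from 2, 3 and 1 reads, while its identical copy ATCG01310 overlapped, with 8, 25 and 5 reads and 5, 5 and 4 reads. Summed over both copies rpl2 had 4.48, 13.1 and 2.16 FPKM in mrpl1-1 and 1.098, 1.79 and 2.08 FPKM in WT. All 3 had an adjusted p of 0.931. petG (ATCG00600), a small cytochrome b6f subunit, had the smallest p of its group from 1 read in each mrpl1-1 library and 1 read in WT replicate 3.

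Several of the loci that stood out in mrpl1-1 replicate 2 lay near each other. Its log2 excess over the mean of mrpl1-1 replicates 1 and 3 was 1.58, 2.23 and 1.38 for the adjacent ndhJ, ndhK and ndhC, and 1.74 and 1.87 for the neighbours atpE and atpB. For rpoA, rpl14, rpl16, rps3, rpl22 and rps19, which lie in one stretch of the genome, it lay between 1.28 and 2.41. For rps14, psaB and psaA it was 0.06, 0.16 and 0.03. These genes were chosen after their values were seen and describe 1 library.

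**Figure D5:**
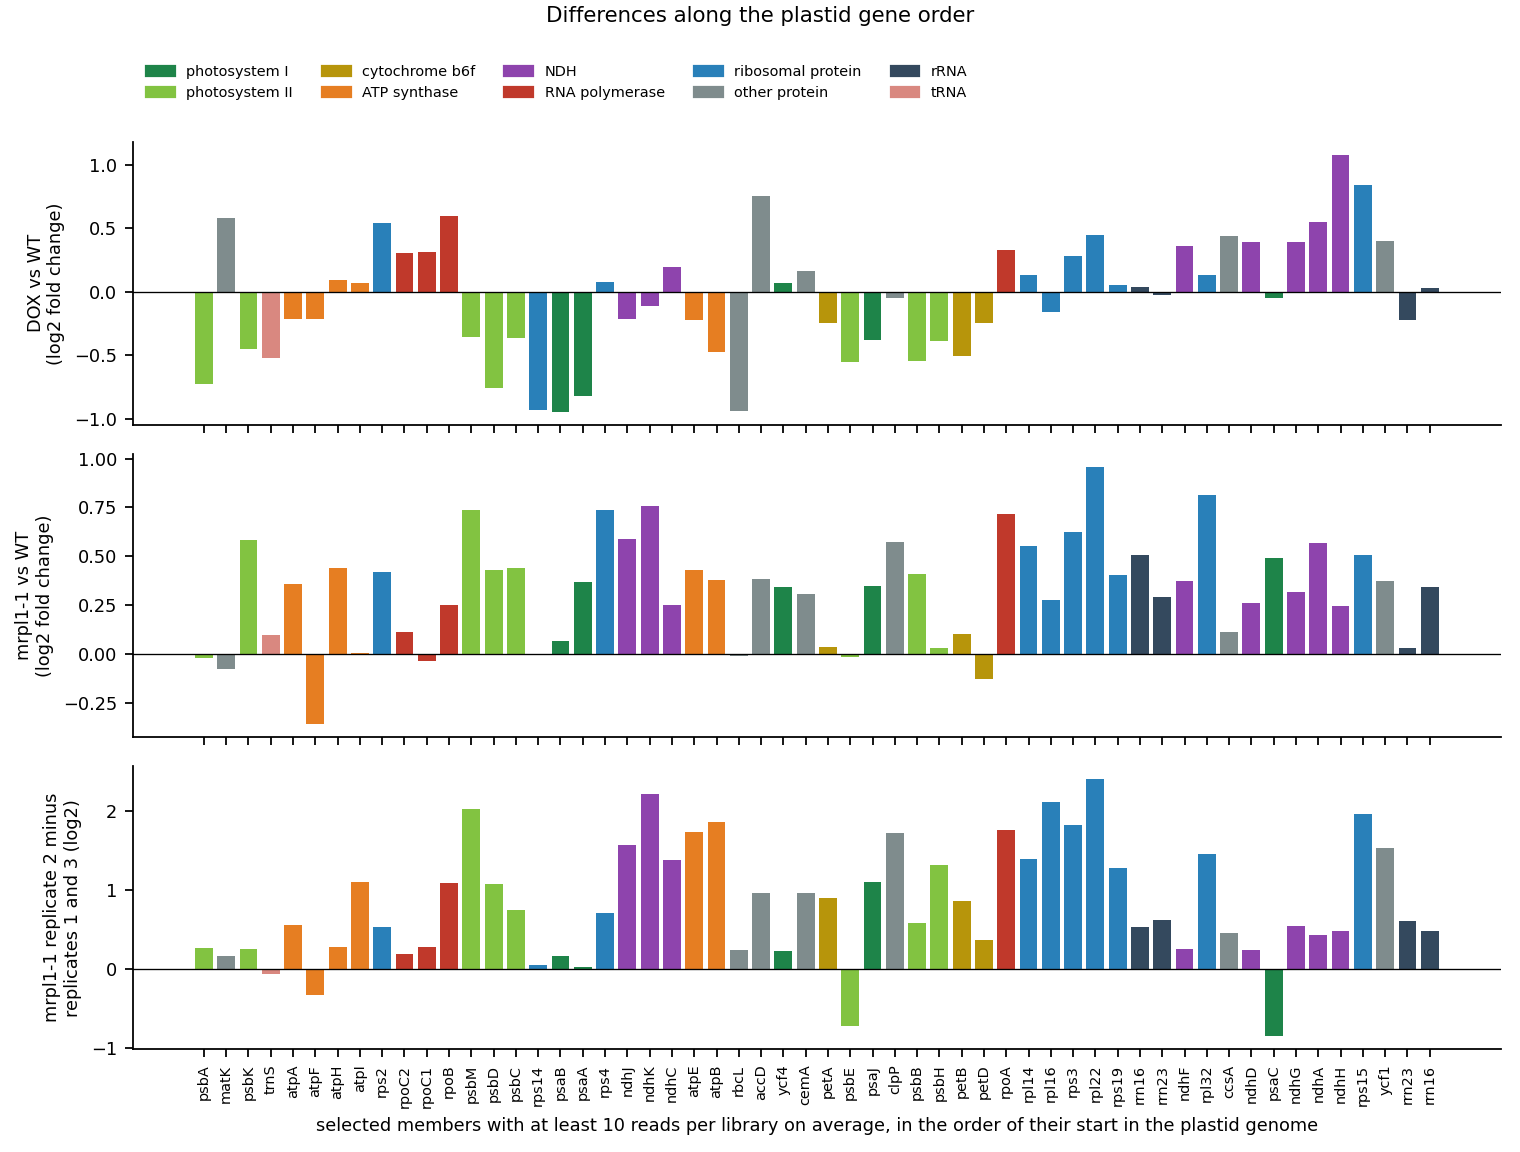
Log2 fold change with DOX (top) and in mrpl1-1 (middle), and the excess of mrpl1-1 replicate 2 over replicates 1 and 3 (bottom), for selected plastid loci with at least 10 reads per library on average in the order of their start. The lowest bars with DOX are psaB, rbcL and rps14, the highest is ndhH, and tall bars in the bottom panel include rpl22 (2.41) and ndhK (2.23).

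Set side by side, without a comparison because the 2 contrasts share their controls, ndhA had log2 fold changes of 0.55 with DOX and 0.57 in mrpl1-1, ndhH 1.08 and 0.24, psaA -0.82 and 0.37, psaB -0.95 and 0.07, and rbcL -0.94 and -0.01.

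Nuclear genes that work with plastid products were counted from 2 lists. The list of polymerase partners held 20 genes, the 6 sigma factors that give the bacterial-type polymerase its promoter choice, the phage-type polymerases RPOTp and RPOTmp and 12 proteins associated with the plastid polymerase. All 20 were tested and none was called in either comparison by limma. At an unadjusted p under 0.05, 1 of 20 was higher with DOX, beside 3.84% of all genes, and none in mrpl1-1. That gene was PAP2 (AT1G74850), at 26.5, 25.4 and 24.8 FPKM with DOX and 20.8, 20.3 and 20.0 FPKM in WT (adjusted p = 0.465). The list medians were 0.05 with DOX and -0.17 in mrpl1-1, where 1 of 20 had a log2 fold change above 0 and PAP9 (AT5G51100) had the smallest p, at 37.03, 40.7 and 36.8 FPKM in mrpl1-1 and 46.2, 45.4 and 60.3 FPKM in WT.

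The second list held 15 nuclear-encoded subunits of the same complexes, and none was called. With DOX its median was -0.04 and 1 of 15 was lower at an unadjusted p under 0.05, beside 4.65% of all genes. That gene was PSAD2 (AT1G03130) of photosystem I, at 259, 261 and 203 FPKM with DOX and 274, 368 and 368 FPKM in WT (adjusted p = 0.508, limma). In mrpl1-1 the median was 0.18 and the smallest p was that of NDHM, at 67.1, 51.4 and 80.4 FPKM in mrpl1-1 and 84.2, 80.2 and 75.2 FPKM in WT.

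Tissue markers were read beside these values. The 4 green-tissue markers summed to between 10160 and 11813 FPKM with DOX and between 9946 and 12472 FPKM in WT, and none of them was called. Most of each sum was RBCS1A, at 10135, 9131 and 10722 FPKM with DOX and 10248, 8883 and 11592 FPKM in WT. The 5 root markers summed to between 39.3 and 48.3 FPKM with DOX and between 96.2 and 98.7 FPKM in WT. Most of the WT sum was RHS13, a root hair gene, which fell (16.8, 20.9 and 18.5 FPKM with DOX and 57.1, 61.4 and 66.1 FPKM in WT, adjusted p = 0.00582, limma). EXPA7, COBL9, LRX1 and RHS13, 4 of 5, were lower at an unadjusted p under 0.05, beside 4.65% of all genes. SCR was not: it overlapped, at 13.0, 13.8 and 12.8 FPKM with DOX and 13.7, 11.8 and 9.08 FPKM in WT, a log2 fold change of 0.20. The 5 root markers did not move together, so their sum is no measure of the amount of root tissue, which was not tested. None of the green-tissue or root markers was at 0, and their part in the plastid values was not tested. In mrpl1-1 the green-tissue sum was 15144, 18860 and 9482 FPKM, against 10744, 9355 and 11742 FPKM in WT, and the root sum 134, 186 and 96.8 FPKM, against 90.5, 92.8 and 92.6 FPKM in WT. No marker was called there, and 1 root marker, EXPA7, was higher at an unadjusted p under 0.05.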

How the data were processed

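PolyA-selected RNA was sequenced with an Ion Torrent Proton, per the labels' protocols. The deposited values are FPKM in 2 tables; Cufflinks 2.2.1, FastQC 0.10.1 and the build TAIR10 are named in the submitters' processing notes, and no source used here names the aligner. The tables' WT columns hold the same libraries up to a factor of 0.94057, 0.94058 and 0.94147, so each comparison used its own table. All 12 sample columns were matched by name.

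Genes whose mean reached 1 FPKM entered limma 3.58.1 (R 4.3.3) as log2(FPKM + 1), with a variance trend across the table and Benjamini-Hochberg adjustment at 0.05; this scale understates folds of low genes. The fit was tested on simulated data, which were continuous values and not reads, so that test does not cover loci of few reads. Samples are biological replicates, 3 per group, per the series' design text.

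Gene names of ATCG identifiers are the usual Arabidopsis ones, since neither the tables nor the annotation pair most of them. Of 133 loci 127 had a RefSeq plastid gene (TAIR10.1). The names were checked in part by length: with fragments of mean 200 nt and SD 80 nt, 669 of 698 values of up to 500 reads were whole reads within 0.05, and 95 of 102 loci had only whole values. The value of 1 read in each library was itself set so that loci of up to 120 nt gave whole reads. Those loci are in the counts but were no check of their own names. Length also cannot tell apart genes of equal length, such as the tRNA genes of 74 nt like trnD or of 73 nt like trnF. The 7 others include genes that overlap (psbD and psbC) and transcripts of another length in the tables. Depth was estimated as 3.39 to 8.82 M reads on genes per library.

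The members, lists, tests and the rule for named genes were chosen with earlier results of these data known. The rule took called loci, loci at 0 in 1 group only, the smallest p and the highest WT mean of each functional group, and the 3 largest non-overlapping rises and falls; other genes named were chosen after their values were seen. Alternatives covered pseudocounts, filters, scalings, weights, a replicate block, inverted-repeat copies and each library left out; filters on length and reads and a fit without both libraries that stood apart were added after seeing the data. Some loci are counted in the totals but not reported here by name.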

Additional observations from a re-analysis of the deposited data

How the results depend on the processing

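Depth limits these results: the called loci rest on 1 or 2 reads per library. The number of plastid loci called, 1 in each comparison, was 0 in both with transcripts of at least 300 nt and 0 in both with loci of at least 10 reads on average, and 2 in mrpl1-1 without both libraries that stood apart. Leaving out 1 library gave between 1 and 3 with DOX and between 1 and 2 in mrpl1-1; the added ones were rps16, rpl22, trnV, trnF and psbF with DOX and trnV, petG, trnR and trnM in mrpl1-1. trnD with DOX and trnF in mrpl1-1 were called in every fit of those comparisons that tested them. The counts over all genes with DOX, 35, were 126 with array weights, 91 without WT replicate 3 and 7 with the replicate block, and other leave-outs gave between 9 and 23; no filter gave 20 and limma without trend 21. In mrpl1-1, where 7 genes were called, array weights gave 18, a filter of 5 FPKM 2, pseudocount 5, no filter and transcripts of at least 300 nt 4 each, and leaving out 1 library between 5 and 11, the 11 without mrpl1-1 replicate 3. Rescaling to nuclear-encoded genes with DOX gave 29 higher and 10 lower among 39 calls, against 22 and 13.

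The summed plastid FPKM was 0.788 times WT with DOX, where the groups overlapped, and between 0.720 and 0.874 times without 1 library. In mrpl1-1 it was 1.27 times WT, and leaving out 1 library gave between 0.960 and 1.46. The median log2 fold change lay between -0.22 and 0.08 with DOX and between 0.05 and 0.46 in mrpl1-1 without 1 library.

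Some uncalled loci changed sign, and the cause was not tested. As reported their values reached -0.51 with DOX (petB) and 0.76, 0.57 and 0.43 in mrpl1-1 (ndhK, clpP and atpE). With DOX, rpl16 was 0.24 with array weights, and leaving out 1 library gave between -0.85 and 0.0225 for petB, between -0.43 and 0.36 for rpl16 and between -0.26 and 0.45 for rrn16. In mrpl1-1, array weights gave 0.14 for psbA, -0.0506 for trnS and 0.27 for rbcL; quantile normalization gave -0.16 for trnS and -0.0160 for petB; rescaling to nuclear-encoded genes gave -0.0206 for trnS and -0.0180 for petB. Without both libraries that stood apart psbA was 0.12, trnS -0.0946, ndhK -0.0207, atpE -0.11 and rbcL 0.25. Leaving out 1 library in mrpl1-1 gave between -0.20 and 0.21 for psbA, -0.11 and 0.28 for trnS, -0.23 and 0.33 for rbcL, -0.15 and 0.92 for atpE, -0.18 and 0.70 for psaJ, -0.00160 and 0.88 for clpP, -0.24 and 0.63 for petB, and -0.43 and 0.79 for rpl16.

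Whether replicate numbers shared by the groups pair the libraries could not be settled from 3 libraries per group. Deviations of same-numbered libraries from their group means correlated across genes between -0.03 and 0.08 with DOX and between -0.08 and 0.03 in mrpl1-1. For libraries of other numbers the correlations lay between -0.10 and 0.02 with DOX and between -0.04 and 0.12 in mrpl1-1. DOX replicates 2 and 3 and mrpl1-1 replicate 2 correlated best with the WT library of their own number, and the remaining libraries did not. With the replicate block 1 plastid locus was called in each comparison, as without it.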
